A study of Mus musculus with 2 samples.

Results

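The genes described here are Acly and 7 further genes that make citrate, move it out of mitochondria, convert it in the cytosol or make acetyl-CoA from another source. They are Acly, Slc25a1, Cs, Aco1, Idh1, Me1, Acss1 and Acss2, chosen by symbol, and all 8 were found among the 34745 gene identifiers of the deposited table. Mouse bone marrow-derived macrophages, primary phagocytes grown from marrow, were compared between 2 conditions with 1 RNA sequencing library each. The AclyE14-ASO library came from C57BL/6 macrophages transfected with an antisense oligonucleotide (ASO, a short synthetic nucleic acid that pairs with a chosen RNA) named for Acly, and treated with lipopolysaccharide (LPS), a bacterial product that macrophages sense through TLR4. The Control-ASO library came from C57BL/6 macrophages transfected with a control ASO and treated with LPS. Both groups therefore shared the strain, a transfection and LPS. LPS-free or untransfected cells were not analysed here, and no source used here gives the number of animals, the doses of ASO and LPS or the times.

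Citrate synthase, encoded by Cs, joins acetyl-CoA and oxaloacetate to citrate in mitochondria, and the carrier encoded by Slc25a1 exports citrate to the cytosol. There ATP-citrate lyase, encoded by Acly, splits citrate into acetyl-CoA, the building block of fatty acids and sterols and the donor for protein acetylation, and oxaloacetate. Cytosolic citrate can instead pass through aconitase (Aco1) and isocitrate dehydrogenase (Idh1), while malic enzyme (Me1) turns malate derived from oxaloacetate into pyruvate, and the last 2 enzymes yield NADPH. Acetyl-CoA synthetases make acetyl-CoA from acetate without citrate, Acss2 in the cytosol and nucleus and Acss1 in mitochondria. In macrophages activated by LPS, exported citrate is known to feed lipid and inflammatory mediator production.

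An exon present in one and absent from the other of 2 annotated Acly transcripts is shown first, because the oligonucleotide carries E14 in its name. Acly (ENSMUSG00000020917) lies on the minus strand at chr11:100476353-100528000 of GRCm38, the assembly also called mm10. In the GENCODE M21 annotation, exon 14 of transcript Acly-203 is a coding exon of 30 nt at chr11:100503160-100503189, and transcript Acly-201 lacks it. Acly-203 has 29 exons and a coding length of 3303 nt, and Acly-201 has 28 exons and 3273 nt. Their last exons differ as well, at the 3′ end. The exon numbered 14 in Acly-201 is a different one, of 142 nt at chr11:100498621-100498762, which is exon 15 of Acly-203. The labels do not say which exon E14 means. The sequences below are read from the GENCODE M21 transcripts, 5′ to 3′ on the transcribed strand, and reach 30 nt into the exon on each side, between 100504232 and 100498733. Capitals mark the whole of exon 14 in the first sequence and the 3 bases on each side of the exon junction in the second.
Acly-203 exons 13 to 15: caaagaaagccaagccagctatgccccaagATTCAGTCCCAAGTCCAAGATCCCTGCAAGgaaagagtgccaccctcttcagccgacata
Acly-201 exons 13 and 14: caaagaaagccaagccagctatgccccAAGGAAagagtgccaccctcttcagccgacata
The deposited values are sums per gene, so the reads behind these 2 forms were not separated. The sequence of the ASO was not used here.

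**Figure D1:**
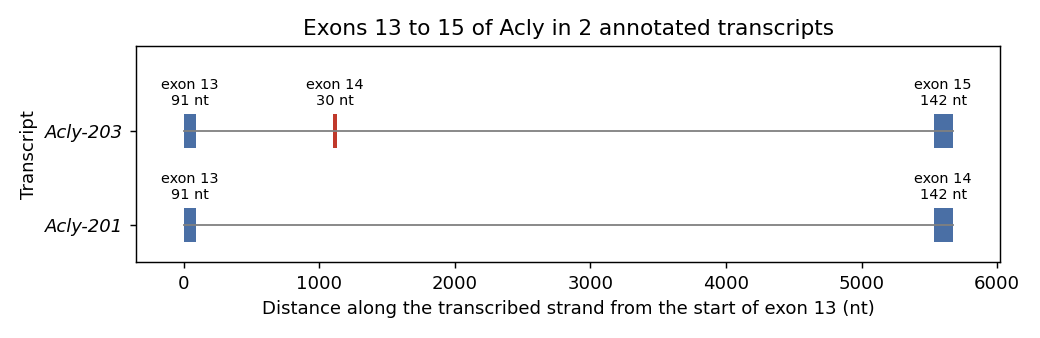
Boxes show exons 13 to 15 of Acly-203 and the matching exons of Acly-201, drawn to scale by distance in nt from the start of exon 13 along the transcribed strand. The 30 nt exon 14 of Acly-203, in red, has no counterpart in Acly-201, where the 142 nt exon is numbered 14.

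The AclyE14-ASO library held 12751076 gene counts and the Control-ASO library 14215397. A level is given as FPKM, the authors' count scaled to gene length and library total. A difference is given as the ratio of counts per library total, AclyE14-ASO over Control-ASO, with an exact 95% interval that covers counting error only. A gene was called lower or higher when this ratio passed 1.5-fold, among the 8658 genes whose 2 libraries averaged 1 FPKM or more, which are called measured here. Each condition was a single library, so no test was possible, no difference has a replicate check, and variation between cultures is part of every ratio. Of all measured genes 14.4% were called lower and 9.40% higher, and the median ratio was 0.896. Among the called genes 39.5% were higher, and this share was 53.1% with TMM factors, 53.5% with median-of-ratios factors and 61.1% after centring on the median gene, which shifts every log2 ratio by 0.16. All 10 macrophage markers were measured, with a summed level of 15432 FPKM in the AclyE14-ASO library and 12163 FPKM in the Control-ASO library, most of it from the lysozyme gene Lyz2, at 12276 FPKM in the AclyE14-ASO library and 9798 FPKM in the Control-ASO library. Of these markers 3 were lower, with ratios of 0.557 for Cd68, 0.525 for Aif1 and 0.602 for C1qa, and 3 were higher, namely Cd14, Fcgr1 and Itgam. The value of Itgam is uncertain, because it shares exons with another gene on the same strand. The ratio of C1qa ends within 1.5-fold after centring. Of 10 markers of fibroblasts and other stromal cells, 7 were measured and all 7 were called higher, Thy1 being measured only through the AclyE14-ASO library, 0 were at 0 counts in either library, and the summed level of the list was 214 FPKM in the AclyE14-ASO library and 49.0 FPKM in the Control-ASO library. The part of these cells in the ratios below was not tested, and in bulk RNA fewer cells of a type and less RNA per cell cannot be told apart.

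Acly, Aco1 and Idh1, the enzymes that take up or convert citrate in the cytosol, were lower in the AclyE14-ASO library, while Cs, Slc25a1 and Acss1 stayed within 1.5-fold. Me1 and Acss2 were higher by counts but at low levels. Of the 8 genes, 6 were measured, each with at least 1 FPKM in both libraries. Of these 6, 3 were called lower, 0 higher and 3 lay within 1.5-fold, against 14.4% lower and 9.40% higher among all measured genes. Their median ratio was 0.696, and that of all measured genes 0.896. At 2-fold, which 3.36% of all measured genes passed as lower and 4.90% as higher, 0 of the 6 were called. The 3 lower genes stayed below the limit with TMM factors, with median-of-ratios factors and after centring on the median gene.

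**Figure D2:**
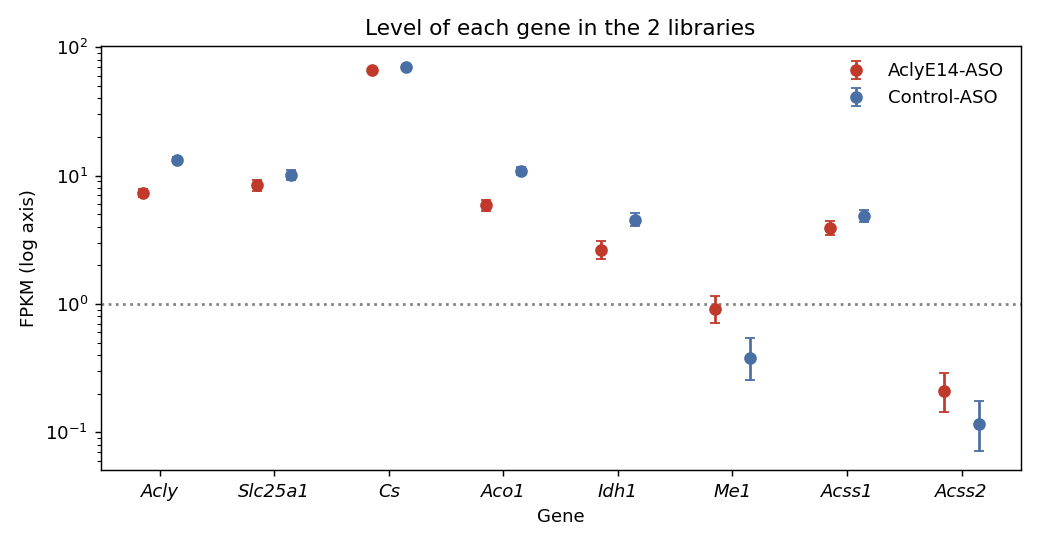
Points give the level in FPKM (log axis) of each gene in the AclyE14-ASO library (red) and the Control-ASO library (blue), with exact 95% Poisson intervals for counting error as bars and a dotted line at 1 FPKM. The paired points of Acly, Aco1 and Idh1 stand clearly apart with AclyE14-ASO lower, those of Cs almost coincide, and Me1 and Acss2 lie below the line in both libraries.

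Acly, the gene the oligonucleotide is named for, was lower in the library labelled AclyE14-ASO. It had 768 counts (7.35 FPKM) in the AclyE14-ASO library, against 1549 counts (13.3 FPKM) in the Control-ASO library. The ratio was 0.553, with an interval of 0.506 to 0.603 that, on library totals, lies wholly beyond the 1.5-fold limit. Of all measured genes 5.29% had a lower ratio than Acly. Relative to the median gene the ratio was 0.617, above the upper end of the interval on library totals. No interval was computed on that scale.

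The genes nearest to Acly in level in both libraries were Lsm14a, an RNA-binding protein of P-bodies, Grk2, a kinase of G protein-coupled receptors, and Rae1, a nuclear export and mitotic spindle protein. Nearness was the distance on log2(FPKM + 1) over the 2 libraries, and it was 0.010 for Lsm14a, 0.057 for Grk2 and 0.079 for Rae1. Lsm14a, for example, was at 7.40 FPKM in the AclyE14-ASO library and 13.4 FPKM in the Control-ASO library. With 2 libraries such nearness says only that these genes had similar values.

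Cs and Slc25a1, which make and export citrate, differed less than Acly. Cs (chr10:128337734-128362479, plus strand), which makes citrate, had 2397 counts (66.5 FPKM) in the AclyE14-ASO library, against 2810 counts (69.9 FPKM) in the Control-ASO library. Its ratio was 0.951, with an interval of 0.900 to 1.005 that includes 1, and it turned to 1.02 with TMM or median-of-ratios factors and 1.06 after centring. Cs was the most abundant of the 8 genes in both libraries. Slc25a1 (chr16:17925223-17928219, minus strand), the mitochondrial citrate carrier, had 405 counts (8.39 FPKM) in the AclyE14-ASO library, against 545 counts (10.1 FPKM) in the Control-ASO library. The ratio of Slc25a1 was 0.828 (0.727 to 0.944), within 1.5-fold, and its interval includes the ratio of the median gene, 0.896. The intervals of Acly and of Slc25a1 do not overlap, nor do those of Acly and Cs. Within a library, the level of Acly in FPKM was 0.111 times that of Cs with the AclyE14-ASO and 0.190 times with the control ASO. Set against Slc25a1, the level of Acly was 0.877 times as high with the AclyE14-ASO and 1.31 times with the control ASO.

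The enzymes of the other cytosolic route of citrate were lower to a similar extent. Aco1 (chr4:40143081-40198338, plus strand) encodes cytosolic aconitase, which turns citrate into isocitrate and, without its iron-sulfur cluster, binds iron-responsive elements of mRNAs as IRP1. It had 372 counts (5.87 FPKM) in the AclyE14-ASO library, against 771 counts (10.9 FPKM) in the Control-ASO library. The ratio was 0.538 (0.474 to 0.610), the lowest of the 8 genes, and its interval overlaps that of Acly. Of all measured genes 4.67% had a lower ratio than Aco1. Idh1 (chr1:65158616-65186500, minus strand), the cytosolic NADP-dependent isocitrate dehydrogenase, had 153 counts (2.65 FPKM) in the AclyE14-ASO library, against 291 counts (4.53 FPKM) in the Control-ASO library. Its ratio was 0.586 with an interval of 0.479 to 0.715, which spans the 1.5-fold limit, so that the call rests on fewer reads than those of Acly and Aco1. The level of Idh1 was 0.546 times that of its mitochondrial counterpart Idh2 with the AclyE14-ASO and 1.10 times with the control ASO, by the authors' gene lengths. Over the longest coding transcripts of GENCODE M21 Idh1 was below Idh2 in both libraries, at 5.21 against 14.4 FPKM with the AclyE14-ASO and 8.89 against 12.2 FPKM with the control ASO.

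**Figure D3:**
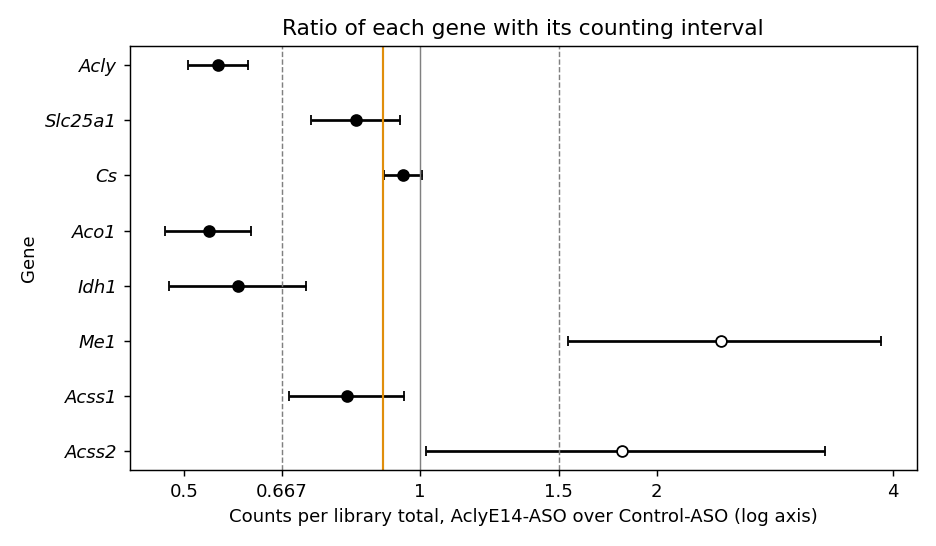
Each point is the ratio of counts per library total, AclyE14-ASO over Control-ASO (log axis), with its exact 95% counting interval. Filled points are the 6 measured genes and open points the 2 below a mean of 1 FPKM, with the 1.5-fold limits dashed and the median measured gene in orange. The intervals of Acly and Aco1 lie wholly below the lower limit, that of Idh1 crosses it, and that of Me1 lies above the upper one.

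Me1 and Acss2 moved the other way on few reads. Me1 (chr9:86581371-86695953, minus strand), the cytosolic malic enzyme, had 65 counts (0.912 FPKM) in the AclyE14-ASO library, against 30 counts (0.378 FPKM) in the Control-ASO library. The ratio was 2.42 (1.54 to 3.86), and the gene did not enter the calls because its mean level was 0.645 FPKM. Acss2 (chr2:155517948-155585724, plus strand), the cytosolic and nuclear acetyl-CoA synthetase, had 34 counts (0.208 FPKM) in the AclyE14-ASO library, against 21 counts (0.115 FPKM) in the Control-ASO library. Its ratio of 1.80 has a wide interval of 1.02 to 3.27, and its exons share 395 nt with Gss and 197 nt with Ggt7 on the other strand, whose reads cannot be told apart from its own if counting ignored the strand. Gss had 100 counts in the AclyE14-ASO library and 146 in the Control-ASO library, and Ggt7 had 10 counts in the AclyE14-ASO library and 0 in the Control-ASO library. Stromal markers, at a summed 214 FPKM in the AclyE14-ASO library and 49.0 FPKM in the Control-ASO library, were higher in the same library as Me1 and Acss2, and their part in these ratios was not tested. Acss1 (chr2:150618105-150668500, minus strand), the mitochondrial acetyl-CoA synthetase, had 246 counts (3.90 FPKM) in the AclyE14-ASO library, against 340 counts (4.83 FPKM) in the Control-ASO library. The ratio of 0.807 (0.682 to 0.953) lay within 1.5-fold, and its interval includes the ratio of the median gene. Acss2 remained far below Acly in both libraries. By the authors' gene lengths its FPKM was 0.0283 times that of Acly with the AclyE14-ASO and 0.00867 times with the control ASO. Over the longest coding transcripts of GENCODE M21 Acss2 was at 0.910 against 13.6 FPKM for Acly with the AclyE14-ASO. With the control ASO it was at 0.504 against 24.6 FPKM.

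The order of levels among the 8 genes differed between the libraries in its middle. In FPKM with the AclyE14-ASO it was Cs, Slc25a1, Acly, Aco1, Acss1, Idh1, Me1 and Acss2, and the Poisson intervals of Slc25a1 and Acly overlap. With the control ASO it was Cs, Acly, Aco1, Slc25a1, Acss1, Idh1, Me1 and Acss2, where Aco1 and Slc25a1 overlap and so do Acss1 and Idh1. Levels between genes depend on the gene length the authors used, which was 8190 nt for Acly and 12801 nt for Acss2, while the longest coding transcript in GENCODE M21 has 4426 nt and 2931 nt. Computed over that transcript, Acly would be at 13.6 FPKM in the AclyE14-ASO library and 24.6 FPKM in the Control-ASO library, and Slc25a1 at 19.1 FPKM in the AclyE14-ASO library and 23.0 FPKM in the Control-ASO library. On this scale Me1 reaches a mean above 1 FPKM and is called higher, while Acss2, at 0.910 FPKM in the AclyE14-ASO library and 0.504 FPKM in the Control-ASO library, does not. The ratios between libraries do not depend on the length.

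**Figure D4:**
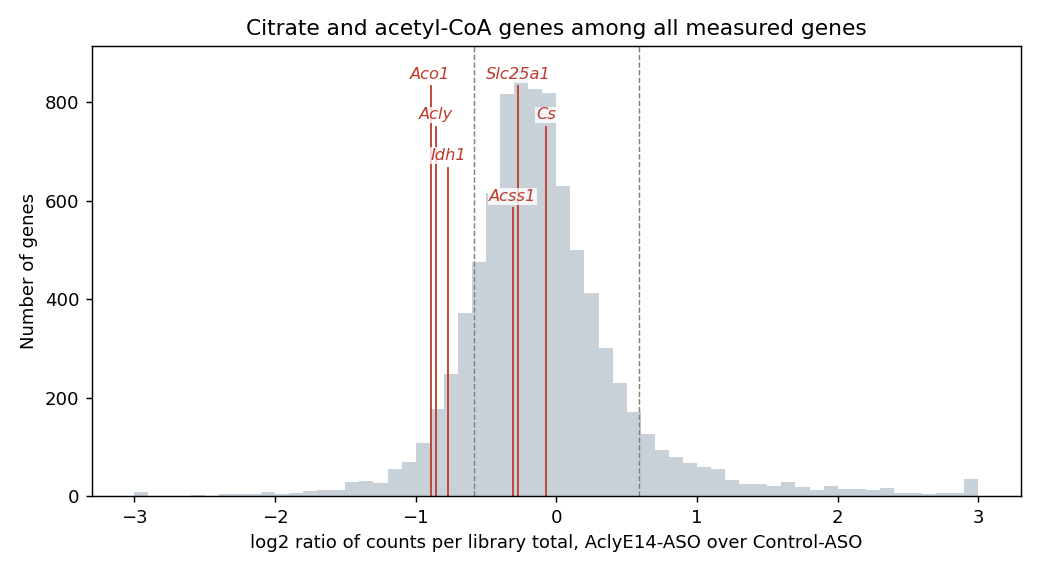
Grey bars count the 8658 measured genes by their log2 ratio of counts per library total, AclyE14-ASO over Control-ASO, with more extreme ratios gathered in the end bins and the 1.5-fold limits dashed. Red lines mark the 6 measured genes. Aco1, Acly and Idh1 lie in the lower flank, and Acss1, Slc25a1 and Cs near the centre.

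Genes around these reactions were read from lists, with the same 1.5-fold rule and against the same 14.4% lower and 9.40% higher. Of 94 distinct genes in 10 lists 77 were measured, of which 14 were called lower and 2 higher, with a median ratio of 0.841. Without the 8 genes above, 11 of 71 were lower (15.5%) and 2 higher (2.82%), so the share of lower genes is near that of all measured genes. With TMM factors, median-of-ratios factors or centring, 9 of the 77 were lower and 4 higher. Of all measured genes 10.1% were lower and 11.5% higher with TMM factors, 10.05% and 11.5% with median-of-ratios factors, and 8.20% and 12.9% after centring. 

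Of the 8 measured genes that interconvert citrate and isocitrate 3 were lower, among them Aco1 and Idh1, and 0 higher, with a median ratio of 0.882. Idh2, the mitochondrial NADP-dependent enzyme, had the highest ratio, 1.18, at 4.86 FPKM in the AclyE14-ASO library and 4.13 FPKM in the Control-ASO library. Acod1, which makes itaconate from cis-aconitate and was the most abundant, was at 1384 FPKM in the AclyE14-ASO library and 1438 FPKM in the Control-ASO library.

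In the citrate-malate-pyruvate shuttle, which returns the oxaloacetate made by ATP-citrate lyase to pyruvate, 2 of 9 measured genes were lower and 0 higher, with a median of 0.862. Acly was the lowest, and Slc25a10, the dicarboxylate carrier, had a ratio of 0.639 (0.514 to 0.792), which no longer passed the limit with TMM factors or centring. Slc25a11, the oxoglutarate carrier, was the highest at 1.17. Pcx, pyruvate carboxylase, was not measured, with 14 counts in the AclyE14-ASO library and 3 in the Control-ASO library.

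Of the pyruvate dehydrogenase complex, which feeds acetyl-CoA to citrate synthase, and its kinases and phosphatases, 8 of 11 genes were measured, 4 were lower and 0 higher, with a median of 0.664. The lower genes were Dlat and Pdhx, which encode a catalytic and a structural subunit, and the phosphatases Pdp1 and Pdp2, which activate the complex. Pdp2 was the lowest, with 72 counts in the AclyE14-ASO library and 168 in the Control-ASO library (ratio 0.478, 0.357 to 0.633). The kinase Pdk3 was the highest, with a ratio of 1.002, and Dld, the most abundant, was at 48.6 FPKM in the AclyE14-ASO library and 60.6 FPKM in the Control-ASO library. The ratio of Dlat, 0.652, was within 1.5-fold relative to the median gene.

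Other genes that make, break down or carry acetyl-CoA mostly lay within 1.5-fold. Of 8 measured genes of this list 1 was lower and 0 higher, with a median of 0.795. The lower gene was Crat, carnitine acetyltransferase, with a ratio of 0.655 (0.548 to 0.780) that ends within the limit under TMM factors and centring. Acat1, the mitochondrial acetoacetyl-CoA thiolase, was the highest at 1.24, at 2.67 FPKM in the AclyE14-ASO library and 2.15 FPKM in the Control-ASO library. The plasma membrane citrate carrier Slc13a5 had 1 count in the AclyE14-ASO library and 0 in the Control-ASO library.

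Among the first enzymes that use cytosolic acetyl-CoA, 5 of 7 were measured, 0 were lower and 1 was higher, with a median of 0.806. The higher gene was Fasn, fatty acid synthase, at 1.74 FPKM in the AclyE14-ASO library and 0.788 FPKM in the Control-ASO library, so that it was measured only through the AclyE14-ASO library. Hmgcs1, an enzyme of sterol synthesis, was the most abundant, at 9.92 FPKM in the AclyE14-ASO library and 12.3 FPKM in the Control-ASO library. Acaca, which commits acetyl-CoA to fatty acid synthesis, had 92 counts in the AclyE14-ASO library and 107 in the Control-ASO library and was not measured.

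In the list of NADPH-making enzymes, which also holds the NAD kinase gene Nadk, 9 were measured, 4 were lower and 0 higher, with a median of 0.897. Beside Idh1 the lower genes were G6pdx and Pgd of the pentose phosphate pathway and the NAD kinase gene Nadk, and with TMM factors or centring Nadk no longer passed. G6pdx shares 418 nt of exon with Ikbkg on the other strand, which had 253 counts in the AclyE14-ASO library and 277 in the Control-ASO library. Pgd was the lowest, at 20.3 FPKM in the AclyE14-ASO library and 37.8 FPKM in the Control-ASO library (ratio 0.538, 0.509 to 0.569). Mthfd1, a folate cycle enzyme, was the highest at 1.496 (1.17 to 1.91), just under the limit, and passed it with TMM factors and after centring. Mthfd2 was the most abundant, at 48.0 FPKM in the AclyE14-ASO library and 53.5 FPKM in the Control-ASO library.

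**Figure D5:**
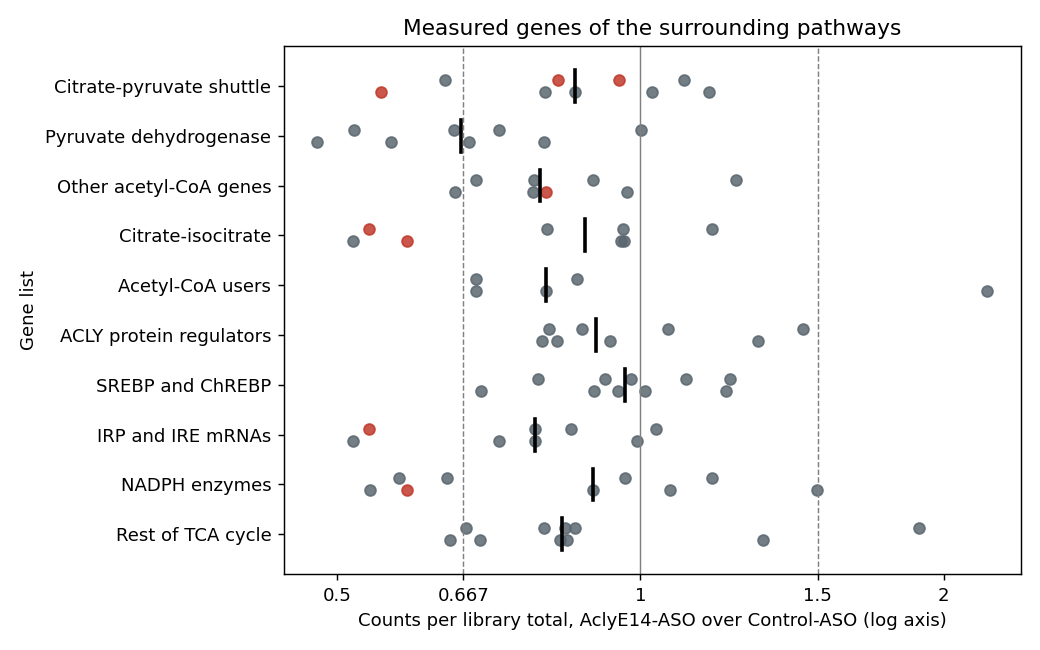
Points are the measured genes of each list by their ratio of counts per library total, AclyE14-ASO over Control-ASO (log axis), with members of the group of 8 in red, list medians as black bars and the 1.5-fold limits dashed. Most points lie between the limits, the pyruvate dehydrogenase list has the lowest median at 0.664, and Fasn and Sdhb are the points beyond the upper limit.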

How the data were processed

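The deposited table gives raw counts per gene and FPKM values for 1 AclyE14-ASO and 1 Control-ASO library, per the file headers. The submitters' processing notes list mm10, edgeR, StringTie 1.3.0 and HISAT2 without saying what each did. No source used here says whether counting used the strand. Per the labels' protocols, a stranded kit for total RNA and beads for mRNA capture were both used. The authors' FPKM per count differed between libraries by a factor of 1.11 in all 10077 genes with more than 20 counts in both, equal to the ratio of count totals, so FPKM carries no other scaling between libraries.

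Symbols were matched by identifier. Ratios of counts per library total have exact intervals (conditional binomial, Clopper-Pearson) and levels exact Poisson intervals. Both cover counting error only, because each condition was a single library. PCR copies cannot be told apart in counts per gene, and reads may not all be separate molecules. The intervals may therefore be too narrow even for counting error. Named genes were the 8 genes, the lowest, highest and most abundant measured gene of each list and the 3 nearest to Acly; Pcx, Slc13a5, Acaca, Slc40a1 and the other called genes of the lists were added after their values were seen. Some genes under this rule are not reported here. The genes and lists were chosen with earlier results of these data known. Alternatives were pseudocounts of 1 and 0.1 on FPKM, TMM factors (edgeR 4.0.16, R 4.3.3), median-of-ratios factors, centring, other filters and 2-fold. The calculations were tested on simulated counts (Python 3.11.15, NumPy 2.4.6, pandas 2.3.3, SciPy 1.17.1).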

Additional observations from a re-analysis of the deposited data

How the results depend on the processing

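No paired analysis was possible because each group had 1 library, and no replicate could be left out. The 3 lower genes Acly, Aco1 and Idh1 stayed lower under both pseudocounts and every scaling run, and 0 of the 6 passed 2-fold. Higher calls among the 8 genes numbered 2 without a filter, where 23.3% of all genes with counts were higher. Only 1 of 7 (Me1) was higher when the filter used the longest coding transcript, where 10.4% of all genes were. This filter was an alternative chosen after seeing the data. At a mean of 5 FPKM only 4 of the 8 were measured and 2 were lower, against 11.6% of all genes at that level. The Acly ratio moved to 0.617 after centring. Over all measured genes, lower calls numbered 734 with FPKM + 1, 710 after centring, 3301 without a filter, 549 at 5 FPKM and 291 at 2-fold, against 1249, and higher calls numbered 3640 without a filter, 335 at 5 FPKM and 424 at 2-fold, against 814. Over the 10 pathway lists, lower calls numbered 9 of 77 with FPKM + 1, TMM factors, median-of-ratios factors or centring. They numbered 8 of 55 at 5 FPKM and 1 of 77 at 2-fold, against 14 of 77. Of all measured genes 8.48% were lower with FPKM + 1, 10.1% with TMM factors and 10.05% with median-of-ratios factors. That share was 8.20% after centring, 11.6% at 5 FPKM and 3.36% at 2-fold. Higher calls in these lists numbered 4 of 77 with TMM factors, median-of-ratios factors or centring, against 2 of 77. They numbered 4 of 80 with the coding transcript filter, 9 of 89 without a filter, 1 of 55 at 5 FPKM and 1 of 77 at 2-fold. Of all genes 11.5% were higher with TMM or median-of-ratios factors and 12.9% after centring. That share was 10.4% with the coding transcript filter, 23.3% without a filter, 7.07% at 5 FPKM and 4.90% at 2-fold. Counts of single lists stayed equal or within 1.5 times in 140 cases and moved in 40. The 140 include counts that were 0 and stayed 0, which say little about stability. Depth limits Me1 and Acss2 most, and the single culture per condition limits every ratio.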

Other observations

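Regulators of the SREBP and ChREBP system, transcription factors known to drive Acly, stayed within 1.5-fold. Of 10 measured genes 0 were lower and 0 higher, against 14.4% and 9.40% of all measured genes, and the median ratio was 0.964. Srebf2 was the lowest, at 17.5 FPKM in the AclyE14-ASO library and 25.2 FPKM in the Control-ASO library (ratio 0.695, 0.644 to 0.749), and Insig1, which retains SREBP in the endoplasmic reticulum, was the highest and the most abundant, at 1.23 (1.14 to 1.32). Mlxipl, which encodes ChREBP, had 0 counts in both libraries. Another list held kinases and factors of acetylation and ubiquitination that are reported to act on ATP-citrate lyase. It gave 0 lower and 0 higher of 8 measured, with a median of 0.904. The kinase Akt2 had the highest ratio there, 1.45 (1.32 to 1.59), and passed 1.5-fold with TMM factors and after centring, Akt1 was the most abundant at 26.5 FPKM in the AclyE14-ASO library and 32.04 FPKM in the Control-ASO library, and the ubiquitin ligase scaffold Cul3 was the lowest at 0.799.

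The Aco1 product doubles as IRP1, so IRP proteins and mRNAs with iron-responsive elements were read as a list. Of 8 measured genes 2 were lower, among them Aco1, and 0 higher, with a median of 0.786. Among all measured genes 14.4% were lower and 9.40% higher. Fth1, the ferritin heavy chain and the most abundant, was also the highest, at 30338 FPKM in the AclyE14-ASO library and 29290 FPKM in the Control-ASO library. Slc40a1, the iron exporter ferroportin, was not measured, and had 4 counts in the AclyE14-ASO library and 75 in the Control-ASO library (ratio 0.0595, 0.0158 to 0.159). In the rest of the TCA cycle 1 of 10 measured genes was lower and 1 higher, near those shares, with a median of 0.836. Dlst, a subunit of oxoglutarate dehydrogenase, was the lowest at 0.647 (0.599 to 0.700) and passed on library totals but not with TMM factors or centring. Sdhb, a succinate dehydrogenase subunit, was the highest at 1.89 (1.72 to 2.08), while Sdhd was the most abundant, at 82.6 FPKM in the AclyE14-ASO library and 103 FPKM in the Control-ASO library.

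Ratios differed with transcript length. The median ratio was 0.947 over the 2164 measured genes with the shortest transcripts, up to 1784 nt, and 0.869 over the 2160 with the longest, from 4353 nt, which include Acly at 4426 nt. The part of length in the ratio of Acly was not tested. Of 8 neutrophil markers 2 were measured, S100a8 and Csf3r, and both were higher, against 9.40% of all measured genes. S100a8 was at 41.4 FPKM in the AclyE14-ASO library and 19.7 FPKM in the Control-ASO library. The markers S100a9, Ly6g, Elane and Camp had 0 counts in both libraries, and Mpo had 2 in each. Whether the number of neutrophils differed was not tested. Of 6 lymphocyte markers 0 were measured. Of 10 macrophage markers 3 were lower, 3 higher and 4 within 1.5-fold, and the Itgam value is uncertain because its exons share 3450 nt with Gm49368 on the same strand. Gm49368 had 6 counts in the AclyE14-ASO library and 1834 in the Control-ASO library. Itgam itself had 3972 counts in the AclyE14-ASO library and 934 in the Control-ASO library. The part of read assignment between the 2 genes in the Itgam ratio was not tested. Mitochondrially encoded genes held 1.11% of counts in the AclyE14-ASO library and 1.40% in the Control-ASO library.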
